A study of Mus musculus with 4 samples.

Results

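Lysosomal enzymes, lysosomal membrane proteins and the transcription factors of the TFEB family were followed in macrophages grown from mouse bone marrow. The 30 genes were taken by symbol from a list, after the deposited RefSeq transcripts had been named and summed per gene. They are 30 of 24235 genes, of which 10680 reached 1 FPKM somewhere. FPKM counts sequenced fragments relative to the length of a transcript and, in its plain form, the size of a library. All 30 reached 1 FPKM in each of the 4 libraries, so the filter at 1 FPKM removed none of them. There were 17 genes with a single listed transcript and 13 with several, 56 transcripts in all.

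The cells came from C57BL/6 mice aged 7 weeks and were grown with M-CSF, the growth factor that turns marrow progenitors into macrophages. The groups were wild type (WT) without and with LPS, and Sema6D-/- without and with LPS, 1 mRNA library each. LPS (lipopolysaccharide, a component of the outer membrane of many bacteria) was given at 100 ng/ml for 4 h. The treatment text of all 4 samples mentions LPS, and the titles separate the groups, with "non" read as unstimulated. The labels do not give the number of animals behind a library, their sex, or the part of Sema6d that was deleted. With 1 library per group no difference has a replicate check, no test across libraries was possible, and each value describes these libraries.

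Lysosomes are acidic compartments in which cells break down proteins, sugars and lipids. TFEB, TFE3 and MITF are related transcription factors that bind a short E-box type sequence in front of many lysosomal genes. mTORC1, a nutrient-sensing kinase at the lysosome surface, keeps TFEB in the cytosol, and folliculin takes part in that control. Macrophages carry many lysosomes, which they use to digest engulfed material and to cut antigens for presentation.

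Estimated depth was 17140151 to 23427376 fragments per library. Several checks of the labels bear on the genotype comparisons. Sema6d measured 0.304 and 0.219 FPKM in WT without and with LPS and 0.563 and 0.592 in the pair of libraries labelled Sema6D-/-, so it was not lower there, and directions between genotypes rest on the labels alone. Xist, made from the inactive X of female cells, was at 22.3 and 21.4 FPKM in WT and at 0.0333 and 0.0306 in the pair labelled Sema6D-/-. The Y-linked Ddx3y was at 13.2 and 16.6 FPKM in the latter and at most 0.00729 in WT, so genotype and this sex-linked difference cannot be told apart. Tnf was at 31.5 and 54.2 FPKM in the unstimulated libraries and at 357 and 1794 in those with LPS. The 7 macrophage markers summed to 16810 and 20148 FPKM in WT without and with LPS and to 20730 and 23879 in the pair labelled Sema6D-/-. In each state 4 of the 7 were higher under the Sema6D-/- label and 3 were lower. Log2 ratios of FPKM + 1 without and with LPS were 1.13 and 1.05 for Cd14, 0.95 and 1.97 for Mertk, and -0.84 and -1.02 for Itgam. Lymphocyte and mast cell markers were all below 1 FPKM, as were 4 of 5 dendritic cell and 4 of 5 stromal markers. The 7 neutrophil and granule markers summed to 814 and 1253 FPKM in WT without and with LPS and to 230 and 355 in the pair labelled Sema6D-/-, with Ly6g, a defining neutrophil marker, below 1 FPKM throughout. In bulk RNA, fewer cells of a type and less RNA per cell cannot be told apart.

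Several lysosomal genes were among the most abundant messages of these cells. Psap, the precursor of the saposins that help lysosomal enzymes reach lipids, measured 4627 FPKM in WT without LPS, 4938 in WT with LPS, and 3743 and 3938 in the pair labelled Sema6D-/- without and with LPS. By FPKM it ranked between place 6 and place 13 of all protein-coding genes. Ctsd, the aspartic protease cathepsin D, measured 3314, 3291, 2725 and 2811 FPKM in the same order. The cysteine proteases cathepsin S (Ctss, 2260, 2980, 2638 and 3314 FPKM) and cathepsin B (Ctsb, 1849, 2237, 1779 and 2235 FPKM) followed. In WT without LPS, 9 of the 30 genes stood among the 50 highest protein-coding genes, and in the other libraries 5 to 8 did. At the other end were Ctsk (7.82 to 11.1 FPKM), Smpd1 (7.56 to 9.99 FPKM) and Tfeb, described below.

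Together the 30 genes made up 5.32% of the protein-coding FPKM total in WT without LPS and 4.11% with LPS. In the pair labelled Sema6D-/- the shares were 4.82% and 3.32%. Their summed FPKM was higher with LPS in both genotypes, at 20966 against 18424 and at 20146 against 17064, while the total over all protein-coding genes went from 346322 to 509585 and from 354054 to 606050. A smaller share and a higher sum therefore stood side by side, and which scale is used decides the direction of small LPS ratios below.

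**Figure D1:**
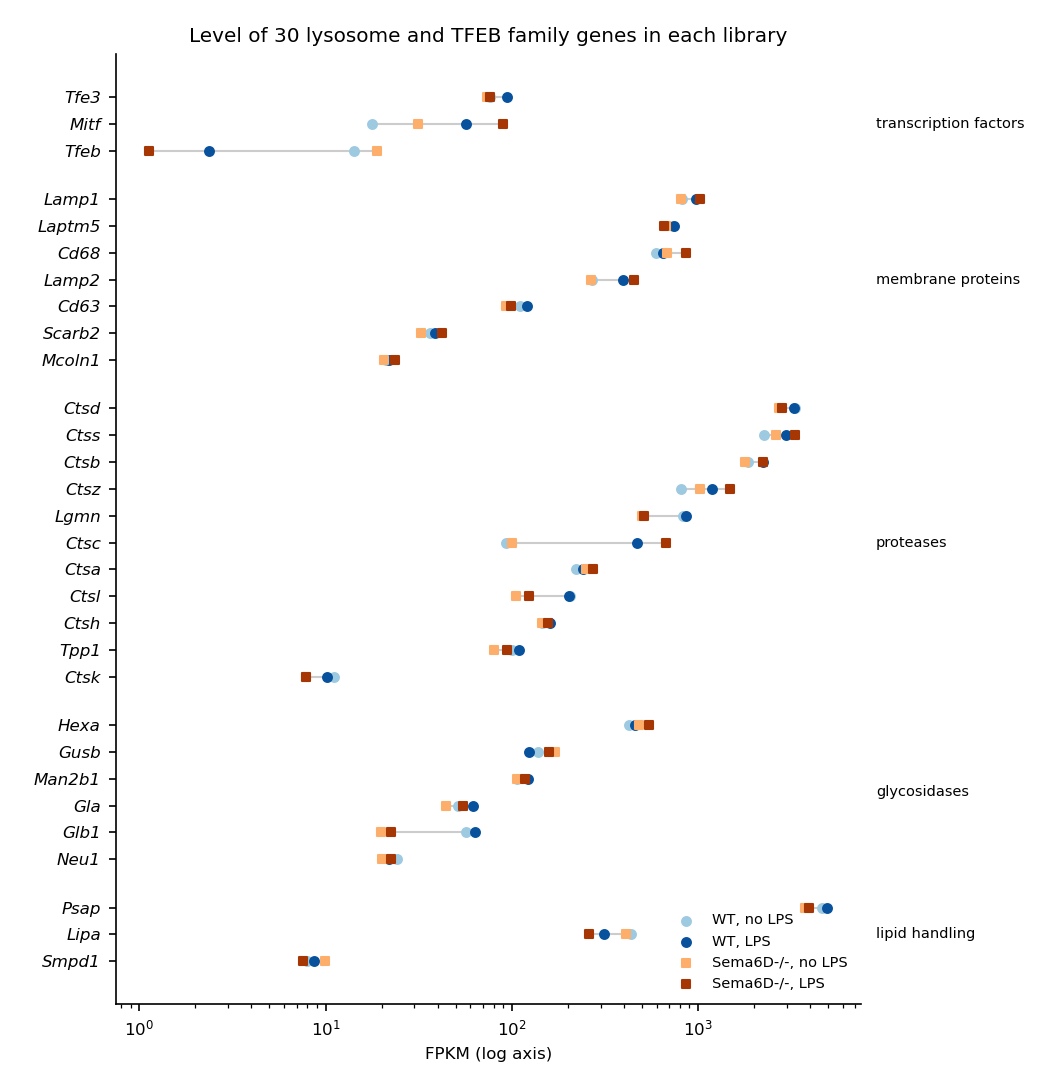
FPKM (log axis) of the 30 genes in each of the 4 libraries, 1 point per library, grouped by role; a grey line joins the lowest and highest library of a gene. Of the 30 genes 26 span less than 2-fold from lowest to highest (not computed over all genes), and Tfeb, Ctsc, Mitf and Glb1 have the long lines.

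Over the 4 libraries 26 of the 30 genes spanned less than 2-fold between their lowest and highest value, with a median span of 0.43 on the log2 scale. The 4 exceptions were Tfeb (4.06), Ctsc (2.85), Mitf (2.34) and Glb1 (1.67). The first 3 differed most with LPS, and Glb1 differed most between genotypes. The span was not computed over all genes, so these counts are not set against a background. In single comparisons most genes lay within 2-fold: 84.4% and 77.2% of all genes with LPS, and 95.3% and 93.7% between genotypes. Ratios from here on are log2 ratios of FPKM + 1, which understates ratios of low genes. Values followed by square brackets leave out the added 1 and give a 95% counting interval from recovered fragment numbers, which covers counting error only.

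With LPS 27 of the 30 genes stayed within 2-fold, while 2 of the transcription factors, Tfeb and Mitf, lay on opposite sides. In WT 2 of the 30 genes were at least 2-fold higher (Ctsc and Mitf) and 1 was at least 2-fold lower (Tfeb), beside 10.7% and 4.85% of the 10375 genes tested. In the pair labelled Sema6D-/- the same 3 genes passed in the same directions, beside 14% and 8.81% of 10398 genes. Of all genes tested in both, 9.85% were at least 2-fold higher in both genotypes and 3.98% lower in both. The remaining 27 genes lay within 2-fold in each genotype, as did 84.4% and 77.2% of all genes. At 1.5-fold no further member passed in WT (17.3% of all genes higher, 13.9% lower). In the pair labelled Sema6D-/- Lamp2 joined the higher genes and Lipa the lower ones (22% and 20.1%), and 16% and 11.9% of all genes reached 1.5-fold in both genotypes. The median of the 30 ratios was 0.12 in WT and 0.16 in the pair labelled Sema6D-/-, beside -0.00 and 0.01 over all genes. These small medians depended on the scale: after rescaling each library to a common FPKM total they were -0.40 and -0.57 (all genes -0.47 and -0.65), and after centring on well-expressed genes both were 0.01. Of the 30 ratios 23 and 25 were above 0 as deposited, beside 49.97% and 50.62% of all genes. After rescaling 4 and 3 of the 30 were above 0, and after centring 17 and 16 were. The rescaling shifted LPS ratios by -0.53 and -0.76. It also turned the overall split of 1114 genes higher and 503 lower in WT into 713 and 1502, and that of 1453 and 916 into 745 and 3008. Centring gave 993 and 655 in WT, and 1245 and 1233 in the pair labelled Sema6D-/-.

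Tfeb, the best known activator of lysosomal genes, measured 14.3 FPKM in WT without LPS and 2.37 with LPS. In the pair labelled Sema6D-/- it measured 18.9 FPKM without LPS and 1.13 with LPS. The values rested on 929, 101, 886 and 39 fragments. LPS ratios were -2.59 [-2.90, -2.29] in WT and -4.06 [-4.56, -3.60] in the pair labelled Sema6D-/-. With the added 1 these were -2.18 and -3.22, and 0.64% and 0.41% of all genes had a lower ratio. The difference of the responses was -1.47 [-2.02, -0.92], or -1.04 with the added 1, the only one of the 30 to reach 2-fold, beside 1.83% of 10680 genes at least 2-fold higher and 1.25% lower in that difference. Without LPS Tfeb was higher under the Sema6D-/- label (0.40 [0.27, 0.54]), and with LPS it was lower there (-1.07 [-1.64, -0.52]).

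Mitf lay on the other side. This relative of TFEB, known for its roles in melanocytes, mast cells and osteoclasts, measured 17.8 FPKM in WT without LPS and 56.8 with LPS, and 31.3 and 90.2 FPKM in the pair labelled Sema6D-/-. Within each state the library labelled Sema6D-/- was higher. The LPS ratios were 1.67 [1.60, 1.74] and 1.53 [1.47, 1.59]. After rescaling to a common total the second fell short of 2-fold (1.11 in WT and 0.76 in the pair labelled Sema6D-/-). The mast cell markers were below 1 FPKM in every library, with Mcpt4 and Tpsb2 listed at 0. Of 8 osteoclast markers, Calcr, Oscar, Dcstamp and Ocstamp stayed below 1 FPKM, and all 8 summed to 62.6 and 66.4 FPKM in WT and to 35.5 and 43.1 in the pair labelled Sema6D-/-. Single markers went opposite ways. Without and with LPS the genotype ratios were -1.47 and -0.88 for Acp5 and 0.36 and 0.88 for Nfatc1. LPS ratios in WT and in the other pair were 0.31 and 0.91 for Acp5 and -1.26 and -0.74 for Nfatc1.

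Tfe3, the remaining factor, stayed within 1.5-fold. It measured 76.2, 94.5, 73.5 and 76.6 FPKM in WT without and with LPS and in the pair labelled Sema6D-/- without and with LPS, with LPS ratios of 0.31 [0.26, 0.36] and 0.06 [-0.00, 0.12]. In the unstimulated libraries it was the most abundant of the 3 messages per length. With LPS it still led in WT, and Mitf stood above it in the library labelled Sema6D-/-. Tfec, a further relative of the family and not among the 30, went from 9.30 to 40.3 FPKM with LPS in WT and from 9.99 to 69.7 in the pair labelled Sema6D-/-.

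**Figure D2:**
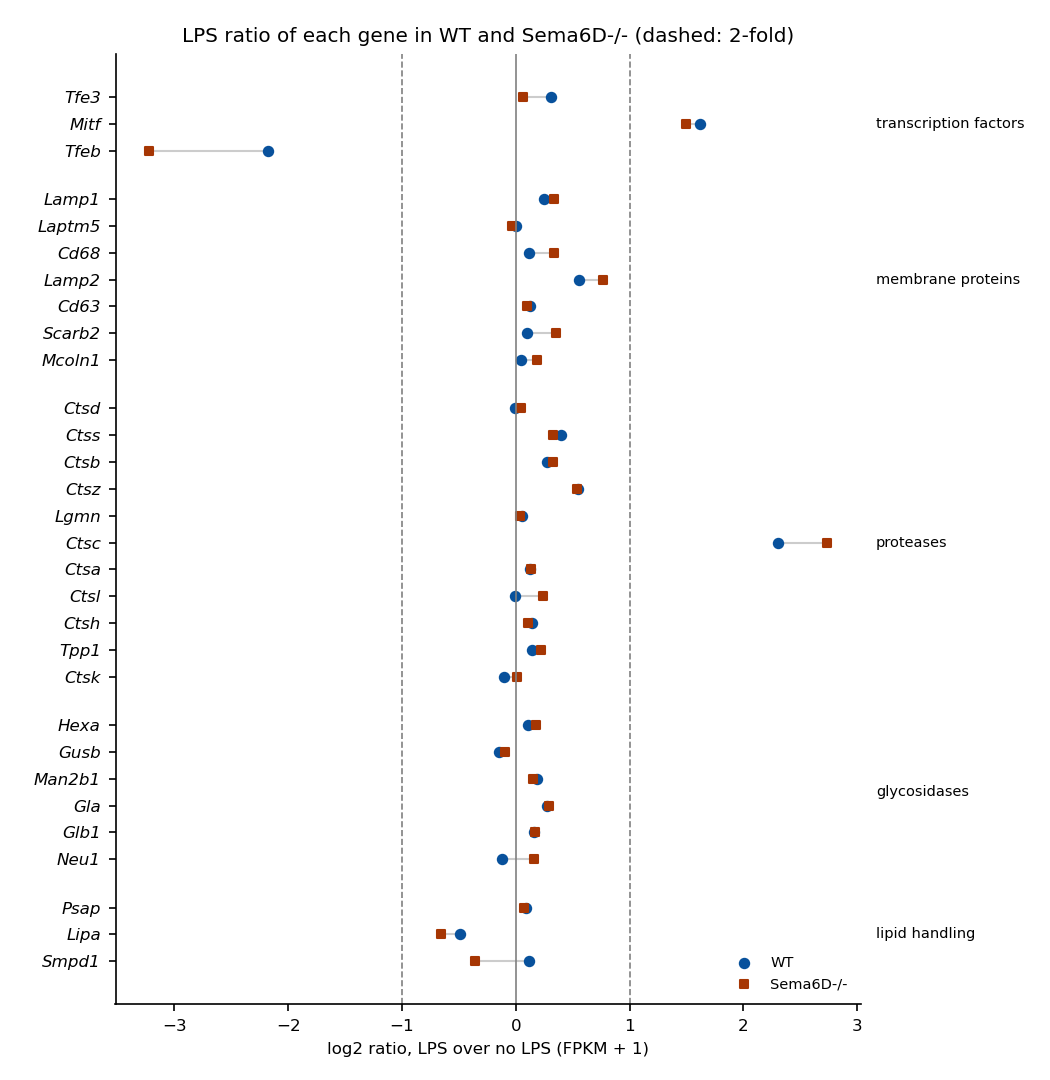
Log2 ratio of LPS over no LPS (FPKM + 1) of each gene, circles for WT and squares for the pair labelled Sema6D-/-; dashed lines mark 2-fold. Tfeb lies at -2.18 and -3.22, Mitf at 1.62 in WT and close by in the other pair, and Ctsc at 2.31 and 2.74, and the other 27 genes lie between the dashed lines.

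Among the proteases Ctsc had by far the highest LPS ratio. It encodes cathepsin C, or dipeptidyl peptidase I, which activates the serine proteases of granulocytes and lymphocytes. It measured 93.6 FPKM in WT without LPS and 468 with LPS, and 100.4 and 675 FPKM in the pair labelled Sema6D-/-. The LPS ratios were 2.32 [2.28, 2.36] and 2.75 [2.71, 2.79], and 3.03% and 2.38% of all genes had a higher ratio. The unstimulated libraries were close to each other (0.10 [0.05, 0.15]), and with LPS the library labelled Sema6D-/- was higher (0.53 [0.50, 0.55]). The summed neutrophil and granule markers went from 814 to 1253 FPKM with LPS in WT and from 230 to 355 in the other pair, and were lower in both libraries labelled Sema6D-/-. Their part in the Ctsc values was not tested.

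The other 10 proteases stayed within 1.5-fold in both LPS comparisons. Ctsz, the carboxypeptidase cathepsin Z, was the highest of them, at 812 and 1190 FPKM in WT against 1020.2 and 1482 in the pair labelled Sema6D-/- (0.55 and 0.54). Ctss, which trims the invariant chain of MHC class II, had 0.40 and 0.33, and Ctsb 0.28 and 0.33. Ctsa, a carboxypeptidase that also protects neuraminidase and beta-galactosidase, had 0.12 and 0.14, and Ctsh, an aminopeptidase, 0.14 and 0.11. Tpp1, a tripeptidyl peptidase, had 0.14 and 0.23. Ctsd (-0.01 and 0.04) and legumain (Lgmn, an asparaginyl endopeptidase, 0.05 and 0.03) were close to 0 in both genotypes. Ctsl (cathepsin L) had -0.00 in WT and 0.24 in the pair labelled Sema6D-/-. Ctsk, the collagen-degrading cathepsin of osteoclasts, rested on 170 to 446 fragments, and its intervals included 0 in both (-0.12 [-0.34, 0.11] and 0.01 [-0.28, 0.30]). Rescaling to a common total put all 10 below 0 in the pair labelled Sema6D-/-.

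The membrane proteins were mostly slightly higher with LPS on the deposited scale, and all but Lamp2 were below 0 after rescaling to a common total. As deposited, 49.97% of all genes in WT and 50.62% in the pair labelled Sema6D-/- had ratios above 0. All 7 membrane proteins had ratios above 0 in WT (median 0.12) and 6 of 7 in the other pair (median 0.33), with Laptm5 at -0.04. Lamp2, a major glycoprotein of the lysosomal membrane, was the highest of them, at 271 and 398 FPKM in WT against 266 and 453 in the pair labelled Sema6D-/-. Its ratios were 0.55 [0.53, 0.58] and 0.77 [0.74, 0.80], and they remained above 0 after rescaling to a common total at 0.02 and 0.01. Lamp1, its close relative, had 0.25 and 0.33. Cd68, the macrophage member of the LAMP family, measured 599 and 649 FPKM in WT against 685 and 865 in the pair labelled Sema6D-/- (0.12 and 0.34). Scarb2, the receptor that carries glucocerebrosidase to lysosomes, had 0.10 and 0.36, the tetraspanin Cd63 had 0.12 and 0.10, and Laptm5, a lysosomal membrane protein of blood cells, had 0.01 in WT. Mcoln1, the calcium channel whose opening activates TFEB through calcineurin, lay between 20.7 and 23.7 FPKM (0.05 and 0.19).

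On the deposited scale the glycosidases stayed close to their unstimulated levels. Their 6 LPS ratios ran from -0.15 to 0.28 in WT and from -0.09 to 0.29 in the pair labelled Sema6D-/-. Gla, the alpha-galactosidase lacking in Fabry disease, was highest at 0.28 and 0.29. Hexa, the alpha subunit of beta-hexosaminidase, had 0.11 and 0.18, Man2b1, the lysosomal alpha-mannosidase, 0.19 and 0.15, and beta-galactosidase (Glb1) 0.16 and 0.17. Gusb, beta-glucuronidase, was the only one below 0 in both (-0.15 and -0.09). Neu1, the lysosomal sialidase, differed in sign between genotypes, at -0.12 and 0.16. After rescaling to a common total all 6 were below 0 in both genotypes. They ran from -0.68 (Gusb) to -0.24 (Gla) in WT and from -0.84 (Gusb) to -0.45 (Gla) in the pair labelled Sema6D-/-.

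Among the 3 genes of lipid handling, Lipa, summed over its variants, was lower with LPS in both genotypes. Lipa, the acid lipase that releases cholesterol and fatty acids from lipoprotein esters, measured 439 and 313 FPKM in WT against 409 and 259 in the pair labelled Sema6D-/-. Its LPS ratios were -0.49 [-0.51, -0.46] and -0.66 [-0.69, -0.62]. After rescaling to a common total Lipa passed 2-fold in both genotypes (-1.02 and -1.41). Smpd1, acid sphingomyelinase, was low (7.92 and 8.66 FPKM in WT, 9.99 and 7.56 in the pair labelled Sema6D-/-) and had 0.13 [-0.06, 0.32] and -0.40 [-0.62, -0.19]. Psap had 0.09 and 0.07.

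Transcript variants differed in their ratios within some of these genes. The deposited values divide reads that variants share by estimation, and 1 library per group gives no measure of that error, so the values are given as listed. Some variants dropped out of a single library. In WT without and with LPS, the Tfe3 variant NM_001271491 was listed at 13.2 and 22.3 FPKM. In the pair labelled Sema6D-/- it was at 0.0634 and 21.5. In the same order the Psap variant NM_001146122 was at 233, 227, 0 and 196 FPKM. Tfeb in the unstimulated libraries was mostly divided between NM_001161722 at 9.24 FPKM in WT and 10.7 in its counterpart labelled Sema6D-/-, and NM_011549 at 3.80 and 7.34. With LPS the WT library held 2.33 FPKM of the first and 0.0414 of the second. The LPS library labelled Sema6D-/- held the reverse, 8.64e-05 and 1.13 FPKM, on 39 fragments. Mitf was listed as a single variant without LPS, NM_001113198 (17.8 and 31.3 FPKM). With LPS that variant reached 47.4 and 72.9 FPKM. A second one, NM_001178049, made up 16.4% of Mitf in WT and 18.7% in the library labelled Sema6D-/-, against 0.000480 FPKM or less without LPS. In Ctsc the longer variant NM_001311790 went from 28.6% of the FPKM to 56.9% with LPS in WT and from 27.7% to 57.8% in the pair labelled Sema6D-/-. Lamp2 shifted in the same direction in both genotypes, with NM_010685 going from 37.1% to 43.2% in WT and from 42.9% to 53.0% in the pair labelled Sema6D-/-. In Lipa, NM_001111100 held 76.5% and 70.5% in WT, and 85.3% and 50.4% in the pair labelled Sema6D-/-. In the latter pair it went from 349 to 131 FPKM with LPS, while NM_021460 went from 60.1 to 129. In WT both were lower with LPS.

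**Figure D3:**
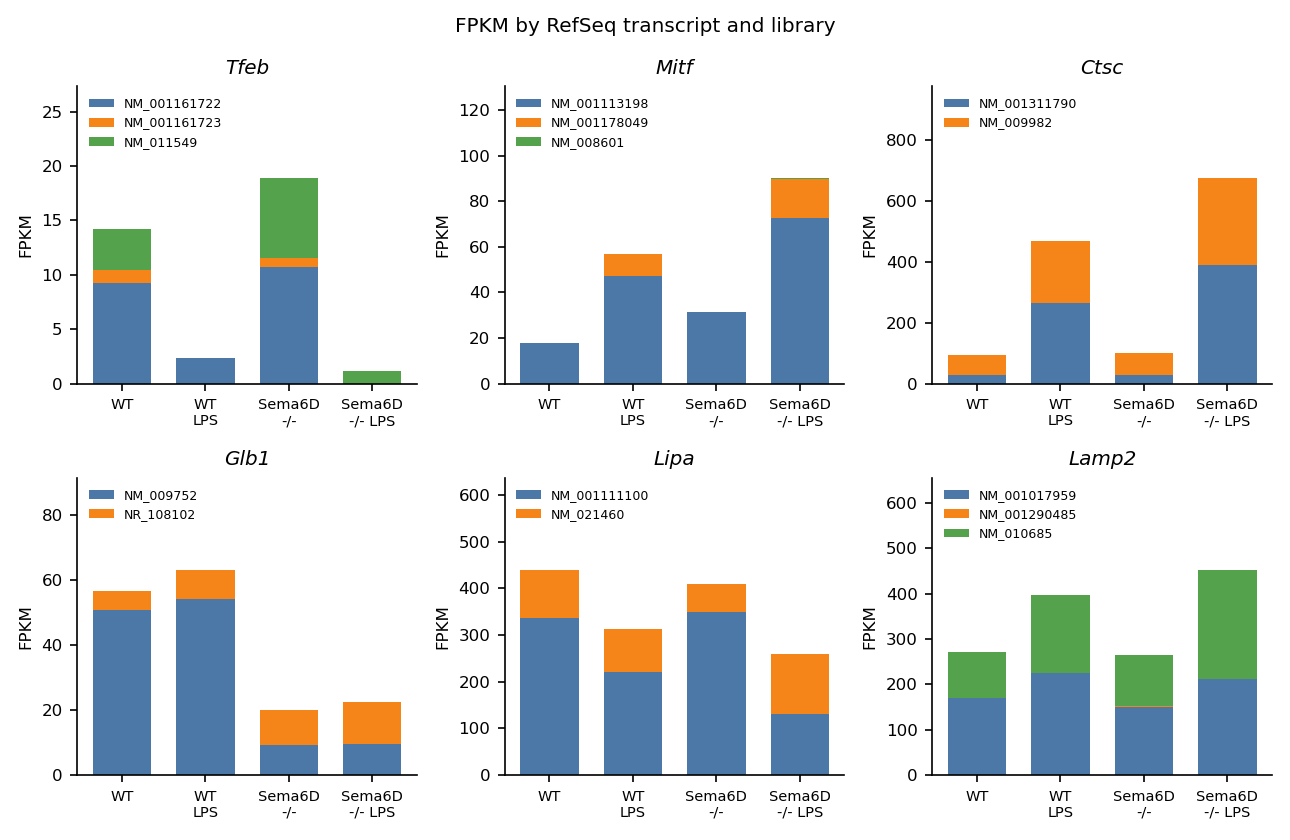
FPKM of 6 genes in each library, with stacked colours for the RefSeq transcripts listed above 0. Tfeb bars are short in both LPS libraries, Mitf and Ctsc bars are tall there, and the Glb1 bars of the pair labelled Sema6D-/- hold less NM_009752 (9.35 and 9.65 FPKM against 50.7 and 54.2 in WT).

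The TFEB family binds E-box sequences close to gene starts, so the promoters of the 30 genes were searched for them. RefSeq promoter sequences of build GRCm38.p6, 250 bases before to 50 bases after each start, were matched by symbol for 28 of the 30 genes. The deposited values were made on mm9, and no value was joined to these sequences by coordinates. The E-box with the flanking bases preferred by this family, GTCACGTG or its reverse complement CACGTGAC on either strand, was present for 7 of the 28 genes, which is 25%. Of all 27025 genes with such a window 2.55% held it, and of the 8560 with 1 FPKM or more here 5.23% did. Its core CACGTG, which the longer sequence contains, was present for 8 of 28 genes, the 7 and Ctsl, against 8.09% of all genes and 12.4% of those at 1 FPKM or more. The related TCATGTG was present for 5 of 28 genes (Ctsa, Ctss, Gla, Scarb2 and Tpp1), against 4.31% and 2.62%. A core interferon-stimulated response element was present for 2 of 28 genes (Ctss and Lamp1), against 3.99% and 4.23%, and a core NF-kappaB site for 0 of 28, against 1.63% and 1.81%. Both strands were searched for each. A match describes the letters only. The stretches around the longer sequence are shown for the 7 genes that hold it. The choice of genes did not use sequence, but the motif was searched because the family binds it in front of many lysosomal genes. Its share among these genes is therefore not independent of that choice and is no test. The longer sequence or its reverse complement is in capitals, 5′ to 3′ on the strand of the gene.
Ctsa: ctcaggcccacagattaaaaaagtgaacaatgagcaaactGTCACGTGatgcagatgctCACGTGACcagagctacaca
Ctsd: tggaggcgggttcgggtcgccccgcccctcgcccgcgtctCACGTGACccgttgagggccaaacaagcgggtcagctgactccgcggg
Gla: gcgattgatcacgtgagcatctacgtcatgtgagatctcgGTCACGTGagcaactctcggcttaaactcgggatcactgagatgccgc
Glb1: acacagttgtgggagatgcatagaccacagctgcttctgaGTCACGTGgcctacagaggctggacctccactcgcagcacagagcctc
Lamp1: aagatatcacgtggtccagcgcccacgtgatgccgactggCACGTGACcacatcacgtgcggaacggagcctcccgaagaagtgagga
Lgmn: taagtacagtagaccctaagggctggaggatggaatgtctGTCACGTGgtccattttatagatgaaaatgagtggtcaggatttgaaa
Mcoln1: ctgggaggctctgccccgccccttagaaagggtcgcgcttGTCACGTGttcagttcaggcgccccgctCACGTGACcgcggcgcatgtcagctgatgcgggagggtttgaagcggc

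The stretches lie at chr2:164833719-164833797 (plus strand) for Ctsa, chr7:142387878-142387965 (minus) for Ctsd, chrX:134601154-134601241 (minus) for Gla and chr9:114400988-114401075 (plus) for Glb1. Those of Lamp1, Lgmn and Mcoln1 lie at chr8:13159093-13159180 (plus), chr12:102439096-102439183 (minus) and chr8:3500406-3500521 (plus). The first base of the capitals is 50 bases before the start in Glb1, 51 in Lgmn, 28 in Lamp1, 98 in Ctsd, 196 in Gla, and 73 and 45 in Mcoln1. In Ctsa 1 copy begins 14 bases before the start and the other just after it, and the alternative Ctsa and Lgmn starts listed by RefSeq lacked the sequence. Ctsd has a further copy 245 bases before the start, outside the stretch shown. Lamp1 has 4 copies of the core CACGTG in the window. In the LPS comparisons the median ratio of the 7 genes was 0.12 in WT and 0.17 in the pair labelled Sema6D-/-, against 0.12 and 0.16 for the 21 without the sequence. Between genotypes it was -0.20 without LPS and -0.19 with LPS, against -0.03 and -0.04, with Glb1 and Lgmn among the 7. Their LPS ratios ran from -0.01 to 0.28 in WT and from 0.03 to 0.33 in the pair labelled Sema6D-/-. Neither Tfeb, Mitf nor Tfe3 had the sequence in the windows listed for them.

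Between genotypes most of the 30 genes were close, and 1 enzyme stood apart in both states. Without LPS 1 gene was at least 2-fold lower in the library labelled Sema6D-/- and 0 were higher, beside 2.19% and 2.51% of 10322 genes. With LPS the counts were again 1 and 0, beside 3.18% and 3.09% of 10078 genes. The gene was Glb1 each time, and 1.35% of 9720 genes were at least 2-fold lower and 1.11% higher in both states. The medians of the 30 ratios were -0.04 and -0.04, beside 0.04 and 0.04 over all genes. Rescaling to a common total shifted the genotype ratios with LPS by -0.23, which turned 311 genes higher and 320 lower into 188 and 410. At a 1.5-fold rule Mitf was higher in both states (4.09% of all genes), and Glb1, Ctsl and Lgmn were lower in both (3.65%). Tfeb joined the lower genes in the LPS state alone. In single states 1.5-fold was reached by 6.96% (higher) and 5.82% (lower) of all genes without LPS, and by 10% and 7.91% with LPS.

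Glb1 encodes the lysosomal beta-galactosidase that is used as a stain for senescent cells. It measured 56.5 FPKM in WT without LPS, 63.1 in WT with LPS, and 19.9 and 22.4 FPKM in the pair labelled Sema6D-/-. Within each genotype LPS made a difference of 0.17 or less. The genotype ratios were -1.51 [-1.61, -1.41] without LPS and -1.50 [-1.61, -1.38] with LPS. A lower ratio was found for 1.01% and 1.14% of all genes. The lower values were those of the coding transcript NM_009752, at 50.7 and 54.2 FPKM in WT against 9.35 and 9.65 (-2.44 [-2.58, -2.30] and -2.49 [-2.66, -2.33]). The non-coding NR_108102 was higher in the pair labelled Sema6D-/-, at 10.5 and 12.7 FPKM against 5.81 and 8.88 (0.85 [0.66, 1.05] and 0.52 [0.32, 0.72]). It made up 52.9% and 56.9% of Glb1 there, against 10.3% and 14.1% in WT. Both transcripts were given the length of the same GENCODE transcript, and the gene Tmppe overlaps Glb1 in the RefSeq annotation, so the division of reads there is uncertain. Under the rescalings and centring the gene-level difference ran from -1.48 to -1.67.

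Ctsl and Lgmn were the other members past 1.5-fold lower in both states. Ctsl measured 204 and 204 FPKM in WT against 105 and 124 in the pair labelled Sema6D-/- (-0.96 [-1.01, -0.91] and -0.72 [-0.78, -0.66]). Lgmn measured 830 and 859 FPKM in WT against 503 and 515 in the pair labelled Sema6D-/- (-0.72 [-0.75, -0.70] and -0.74 [-0.77, -0.71]). LPS altered neither gene by more than 0.24. Both products process antigens and other proteases in the lysosome, and legumain is known to cut cathepsin L. Ctsk was also lower in both states (-0.50 [-0.74, -0.27] and -0.37 [-0.66, -0.09]), as were Psap (-0.31 and -0.33), Ctsd (-0.28 and -0.23), Tpp1 (-0.31 and -0.22) and Cd63 (-0.25 and -0.28).

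Several enzymes and the membrane protein Cd68 were higher in both libraries labelled Sema6D-/-. Ctsz (0.33 and 0.32), Gusb (0.30 and 0.35), Hexa (0.17 and 0.24), Ctsa (0.17 and 0.18), Ctss (0.22 and 0.15) and Cd68 (0.19 and 0.42) were all under 1.5-fold. After rescaling to a common total the ratio with LPS was -0.05 for Ctsa, -0.08 for Ctss and 0.01 for Hexa. Mitf had 0.81 [0.74, 0.89] without LPS and 0.67 [0.61, 0.72] with LPS. Of the members encoded on the X chromosome, Gla had -0.20 and -0.19, Lamp2 -0.03 and 0.19 and Tfe3 -0.05 and -0.30. The summed neutrophil and granule markers and the Xist and Ddx3y levels given above also separated the genotypes, and their part in these ratios was not tested.

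**Figure D4:**
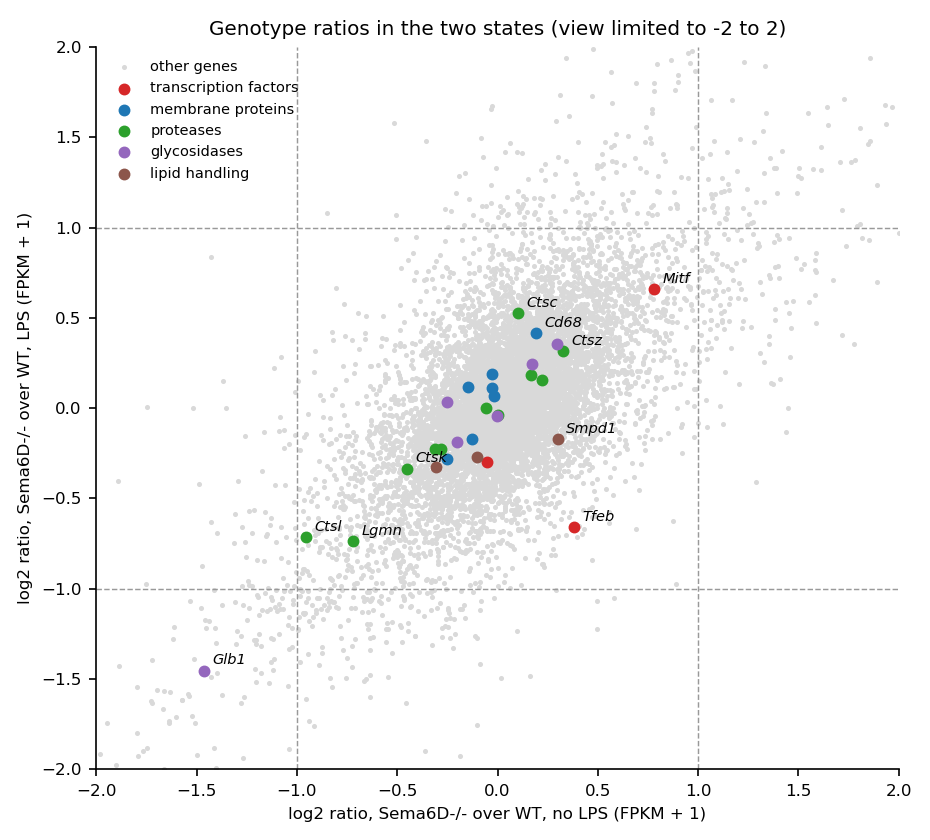
Log2 ratio of the pair labelled Sema6D-/- over WT (FPKM + 1) without LPS (x axis) and with LPS (y axis), grey points for all genes and colours for the 30 genes by role; dashed lines mark 2-fold, and genes beyond the axis limits are not drawn. Glb1 lies at -1.46 and -1.46, Ctsl and Lgmn lie nearer the centre on the same side, and Tfeb lies at 0.38 and -0.66.

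The responses to LPS lay within 2-fold of each other in the genotypes for 29 of the 30 genes, as for 96.9% of 10680 genes. These differences (the LPS ratio in the pair labelled Sema6D-/- minus that in WT) had a median of 0.01, beside -0.01 over all genes, and Tfeb was the only member past 2-fold or past 1.5-fold (5.57% of all genes higher and 5.71% lower at 1.5-fold). Rescaling turned the 195 genes at least 2-fold higher and 134 lower in this difference into 123 and 222. The next were Smpd1 (-0.53 [-0.82, -0.25]) and Ctsc (0.43 [0.37, 0.48]). Neu1 had 0.30 [0.12, 0.47], Scarb2 0.27 [0.17, 0.36], Ctsl 0.24 [0.17, 0.32] and Cd68 0.22 [0.18, 0.27]. After rescaling to a common total these differences became 0.20 for Ctsc, 0.07 for Neu1, 0.04 for Scarb2, 0.02 for Ctsl, -0.00 for Cd68 and -0.67 for Smpd1, and that of Tfeb was -1.12.

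Other genes of the pathway, were taken from lists kept separate from the 30. Of 118 such genes 109 were tested in WT, where 6 were at least 2-fold higher with LPS and 5 lower, beside 10.7% and 4.85% of all genes. In the pair labelled Sema6D-/- 10 of 108 were higher and 10 lower, beside 14% and 8.81%. Between genotypes 1 of 109 was higher and 2 lower without LPS (2.51% and 2.19% of all genes). With LPS 3 of 108 were higher and 3 lower (3.09% and 3.18%). Further hydrolases and their cofactors held 0 higher and 2 lower of 34 in each genotype, with medians of 0.09 and 0.11. The 2 were Pla2g15, the lysosomal phospholipase A2 (35.5 and 14.2 FPKM in WT, 33.0 and 5.26 in the pair labelled Sema6D-/-), and Sgsh, a sulfohydrolase of heparan sulfate (8.32 and 3.53, 11.4 and 2.77). Npc2, a sterol carrier, was at 0.63 and 0.60. Idua, the iduronidase of heparan and dermatan sulfate, was the one hydrolase at least 2-fold lower in the pair labelled Sema6D-/- in both states (15.2 and 15.2 FPKM in WT, 6.88 and 6.04 there).

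Of the channels, transporters and other proteins of the lysosomal membrane, 3 of 24 in WT were at least 2-fold higher and 0 lower (median 0.02). In the pair labelled Sema6D-/- 4 were higher and 3 lower (median 0.10). Of all genes 10.7% were higher and 4.85% lower in WT, and 14% and 8.81% in the pair labelled Sema6D-/-. The higher ones of the list were Mcoln2, a relative of Mcoln1 (1.35 and 1.38), Slc15a3, a peptide and histidine transporter (1.23 and 1.73), and Cd164, a sialomucin (1.34 and 2.07). Clcn7, the chloride-proton exchanger, measured 47.4 and 83.9 FPKM in WT and reached 179 with LPS in the pair labelled Sema6D-/- (0.81 and 1.88), where it passed 2-fold. Lower were the 2-pore channels Tpcn1 (-0.88 and -1.58) and Tpcn2 (-0.82 and -1.21) and the cystine exporter Ctns (-0.83 and -1.62). Cd74, the invariant chain cut by Ctss, was higher in the pair labelled Sema6D-/- in both states (1.38 and 1.33).

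Among the relatives and regulators of TFEB 1 of 17 was higher and 1 lower in WT. In the pair labelled Sema6D-/- 1 of 16 was higher and 2 lower (medians -0.08 and 0.07). The higher one was Tfec, given above. The shares of all genes at 2-fold were 10.7% higher and 4.85% lower in WT, and 14% and 8.81% in the other pair. Flcn, which encodes folliculin, measured 19.9 and 5.66 FPKM in WT against 15.3 and 3.44 in the pair labelled Sema6D-/- (-1.65 and -1.88). Its partner Fnip2 measured 29.0 and 14.4, and 17.3 and 6.72 FPKM (-0.96 and -1.24). Of 20 autophagy genes tested, 1 was at least 2-fold higher and 2 lower in WT, and 3 were higher and 3 lower in the other pair. Their medians were -0.20 and -0.13, with Optn (1.54 and 1.88) high and Vps18 (-1.23 and -1.47) and Nbr1 (-1.01 and -1.29) low. Sqstm1 and Atg16l1 were also higher and Ulk1 lower in the pair labelled Sema6D-/-. Genes that sort enzymes to lysosomes had 0 of 10 past 2-fold in either genotype (medians 0.03 and -0.03), with M6pr, the cation-dependent mannose 6-phosphate receptor, at 0.84 and 0.91. Of 4 cathepsin inhibitors tested (medians 0.59 and 0.99), Cst7 (cystatin F, which inhibits cathepsin C) had the highest ratios. It measured 1.86 and 16.9 FPKM in WT against 4.28 and 59.9 in the pair labelled Sema6D-/- (2.65 and 3.53).

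**Figure D5:**
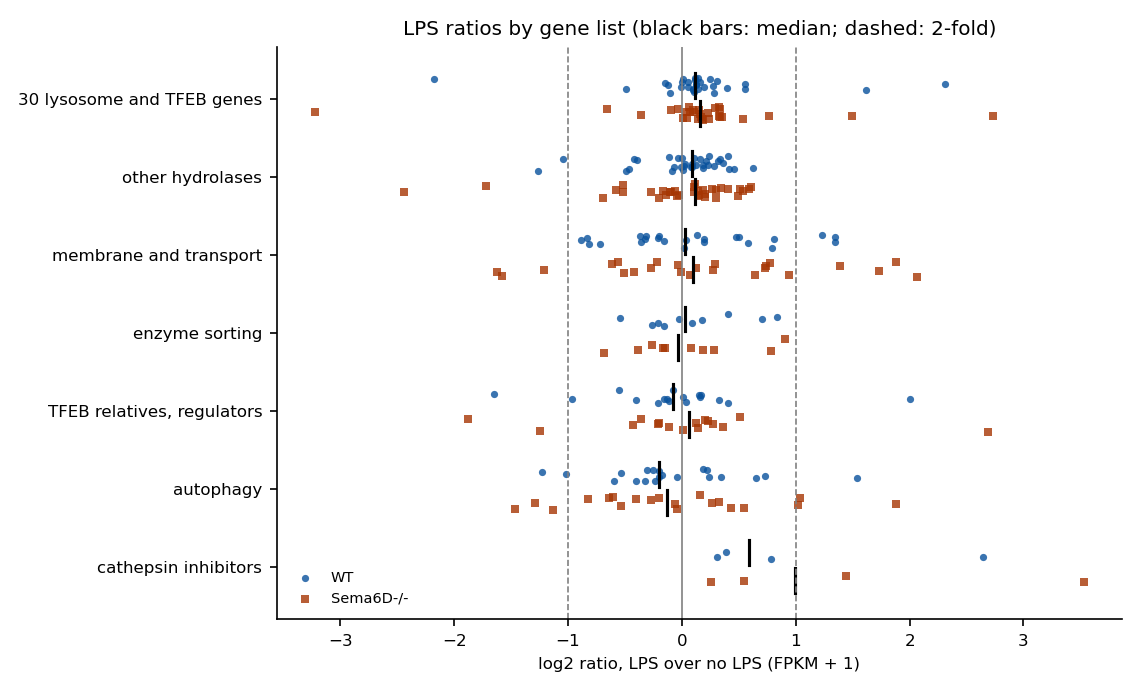
Log2 ratio of LPS over no LPS (FPKM + 1) of the 30 genes and of 6 further lists, 1 point per gene at 1 FPKM or more, circles for WT and squares for the pair labelled Sema6D-/-; black bars are medians and dashed lines mark 2-fold. The medians of the 30 genes are 0.12 and 0.16, those of the transporters 0.02 and 0.10, and those of the autophagy genes -0.20 and -0.13.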

How the data were processed

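Messenger RNA of 4 libraries, 1 per group, was used. The deposited values were FPKM per RefSeq transcript. The submitters' processing notes name build mm9 and Cuffnorm 2.2.1, with SAMtools 0.1.19, Bowtie2 2.2.3 and TopHat2 2.0.13, in no stated order. Their options, annotation version and scaling between libraries are not given in the sources used here. Of 34487 transcripts 34163 were named from the RefSeq table of GRCm38 and 187 from GENCODE, 137 were left out, and transcripts were summed per symbol. A gene was tested at 1 FPKM or more in a compared library, with 1 added before log2 and a size rule of 2-fold. Members and lists were chosen with earlier results of these data known. All 30 members are named, and of the other lists and cell type markers up to 4 genes per list and comparison with the largest absolute ratio at 5 FPKM or more, beside Sema6d and Tnf. Xist, Ddx3y, and the values of a named gene in a further comparison were added after their values were seen.

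Fragment numbers were recovered from steps of low FPKM, using GENCODE transcript lengths. Of low values 72.5 to 74.3% fell on whole multiples within 0.1, against 20% by chance. Intervals are exact Clopper-Pearson intervals, or for differences of responses normal approximations to Poisson errors. Only the former were tested on simulated counts, which left out errors of recovering fragments and of dividing reads between variants. Python 3.11.15, pandas 2.3.3, NumPy 2.4.6 and SciPy 1.17.1 were used.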

Additional observations from a re-analysis of the deposited data

Results flagged for a closer look

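Neu1 was listed because its LPS ratios had opposite signs in the genotypes with counting intervals apart from 0, at -0.12 in WT and 0.16 in the pair labelled Sema6D-/-. After rescaling to a common total both were below 0, at -0.63 and -0.56. The difference between the genotypes was not tested.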

How the results depend on the processing

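No paired analysis was possible because each group holds 1 library and the labels carry no replicate numbers, and no library could be left out. The alternatives were a pseudocount of 0.1 FPKM, no filter, a filter at 5 FPKM, a common FPKM total, centring on 6110 well-expressed genes, the major transcript alone and a 1.5-fold rule. A common fragment total and no pseudocount were added after seeing the data. No 2-fold call changed sign under any of them. With a common FPKM or fragment total, LPS calls became 2 higher and 2 lower in WT (Lipa joins Tfeb) and 1 higher and 3 lower in the pair labelled Sema6D-/- (Mitf, at 0.76 and 0.78, leaves, Lipa and Smpd1 join). The major transcript alone gave 2 lower there, with Lipa. Between genotypes with LPS, 2 were lower (Glb1 and Tfeb) with a pseudocount of 0.1, with none, or with the major transcript. The 1.5-fold rule gave 3 higher and 2 lower for LPS in the pair labelled Sema6D-/-, 1 higher and 3 lower between genotypes without LPS, and 1 higher and 4 lower with LPS. Other counts of calls among the 30 genes were within 1.5 times. Counts over all genes moved more. A pseudocount of 0.1 took lower calls for LPS from 503 to 892 in WT and from 916 to 1443 in the other pair, and no pseudocount gave 917 and 1478. Between genotypes without LPS, 259 higher and 226 lower became 406 and 359 with 0.1, and higher calls 408 with none. With LPS, 320 lower became 492 and 488. For the difference of responses, 195 higher and 134 lower became 294 and 363 with 0.1, lower calls 373 with none, and 346 and 332 with the major transcript. A common FPKM total changed 1114 higher and 503 lower for LPS in WT to 713 and 1502, and 1453 and 916 in the other pair to 745 and 3008. It changed 311 higher between genotypes with LPS to 188, and the difference to 123 and 222. A common fragment total gave 721 and 1410, 746 and 2848, 187, and 124 and 208. The 1.5-fold rule gave 1793 and 1441, 2288 and 2093, 718 and 601, 1009 and 797, and 595 and 610, higher and lower, for LPS in WT, LPS in the other pair, genotype without and with LPS, and the difference. Depth limits Tfeb with LPS (39 to 101 fragments), Ctsk and Smpd1. A lack of replicates limits every difference.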
